A study of Mus musculus with 15 samples.

Results

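The genes described here are 40 antiviral interferon-stimulated genes of the mouse, measured as raw read counts in myeloid cells sorted from tumours. They form a fixed list and were found by symbol among the 50508 symbols of the deposited table, by a rule that uses no measured value. All 40 were present and all 40 were among the 13800 genes with enough counts to be tested. The study compared tumours grown from LLC cells, the Lewis lung carcinoma line of the mouse, after 10 days of growth. The groups were Ly6Chigh CD11c+ MHC-II+ cells of SULT2B1b-LLC tumours (n = 4 libraries), the same population of Mock-LLC tumours (n = 4), Ly6C low cells (Ly6Clow) of SULT2B1b-LLC tumours (n = 3) and Ly6Clow cells of Mock-LLC tumours (n = 4). SULT2B1b is a sulfotransferase that acts on cholesterol and oxysterols, and Mock-LLC tumours serve as its control, going by their name. The labels number the tumours within a type but do not say whether 1 mouse bore 1 tumour. The p-values therefore measure the spread between these libraries. For tumour 1 of SULT2B1b-LLC, Ly6Clow cells were not analysed here. The labels do not state the strain, sex or age of the mice, nor whether each tumour line was a single clone.

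Type I interferons (interferon beta and the interferon alphas) bind the receptor made of Ifnar1 and Ifnar2 and act through the kinases Jak1 and Tyk2. Transcription factors activated by these kinases, Stat2 with Irf9 among them, bind the interferon-stimulated response element (ISRE) before many of the genes listed here. Interferon gamma instead acts through the gamma-activated site (GAS), and many genes answer to both kinds of interferon. In tumours, type I interferon acting on dendritic cells and other myeloid cells is known to support the priming of T cells, and the products of these genes sense foreign nucleic acid, cut or sequester RNA and block translation, virus entry or virus release.

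The total depth differed between the populations without overlap. Ly6Chigh libraries held 2617878 to 10626954 counts and Ly6Clow libraries 19792494 to 39284008, so that depth and population cannot be told apart. A floor of 3 counts lay between 0.272 and 1.14 CPM in Ly6Chigh and between 0.0777 and 0.153 CPM in Ly6Clow libraries, where CPM are counts scaled to the TMM-adjusted total of a library. The lowest count of any of the 40 genes in any library was 39, so that depth did not limit their detection. Tumour 1 of SULT2B1b-LLC stood apart in Ly6Chigh cells: its library was the shallowest and yet detected 24540 genes, where 13123 to 17737 were detected in the other Ly6Chigh libraries, and unnamed gene models took 9.75% of its counts, where they took 1.15% to 1.65% of theirs. Sult2b1 itself was counted at 9.84, 9.31, 10.5 and 19.1 CPM in Ly6Chigh cells of SULT2B1b-LLC tumours, against 0, 0, 0.196 and 0.453 CPM in those of Mock-LLC tumours, and at 1.12, 1.30 and 2.39 CPM, against 0.286, 0, 0.510 and 0.407 CPM, in Ly6Clow cells. The groups did not overlap in either population, and no library went against its label. The sort differed between the populations too, since CD11c and MHC-II are named for Ly6Chigh cells alone, and in bulk samples fewer cells of a type and less RNA per cell cannot be told apart.

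Many of the 40 genes lie in small clusters on the build GRCm38. The genes Ifit2, Ifit3, Ifit3b and Ifit1 follow each other on chromosome 19, between 34550694 and 34650009, and Oas2, Oas3, Oas1g and Oas1a on chromosome 5, between 120730333 and 120907521. Mx1 and Mx2, and the group of Parp14, Dtx3l and Parp9, lie on chromosome 16, which like chromosome 5 holds 6 of the 40. Rsad2 (26442746 to 26456452) and Cmpk2 (26469204 to 26479837) are neighbours on opposite strands of chromosome 12. Ifit3 and Ifit3b, and likewise Oas1a and Oas1g, are near-identical copies, so that the split of reads within each pair is uncertain. The library kit does not mark strand, and Dtx3l and Parp9 on opposite strands share 8% and 9.40% of their exon bases, so reads there cannot be told apart. Overlaps with unnamed gene models covered 16.8% of the exon bases of Ifi35, 13.9% of those of Rtp4 and 13.7% of those of Herc6.

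A promoter window from RefSeq (build GRCm38.p6, 250 bases before to 50 bases after the gene start) was at hand for 29 of the 40 genes. The core letters of the ISRE, taken as GAAA, any 2 bases and GAAA again on either strand, occurred in 14 of these 29 windows (48.28%), against 3.993% of the 27025 genes with a window. Over the 250 bases before the start alone the shares were 37.93% of the 29 and 3.463% of all. The GAS letters TTCNNNGAA on either strand occurred in 6 of the 29 (20.69%), against 9.554% of all genes with a window. A match describes letters in these windows and does not show binding. The following stretches of 120 bases are shown because they belong to the genes with ISRE letters before the start that had the lowest p between tumour types in Ly6Clow cells, and to the 2 genes with a window but without such letters that had the lowest p there. Zbp1 and Rtp4, whose p was lower than that of Xaf1, are among the 11 genes with no window and were not read. Each reads 5′ to 3′ on the strand of its gene, and capitals mark matches to the ISRE letters.
Oas1a (chr5:120907526-120907645, - strand): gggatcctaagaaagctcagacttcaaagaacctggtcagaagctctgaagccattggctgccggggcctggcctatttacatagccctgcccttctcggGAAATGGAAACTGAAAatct
Bst2 (chr8:71537527-71537646, - strand): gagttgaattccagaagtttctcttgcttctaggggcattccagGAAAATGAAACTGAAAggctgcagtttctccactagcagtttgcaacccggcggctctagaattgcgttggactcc
Oas1g (chr5:120887614-120887733, - strand): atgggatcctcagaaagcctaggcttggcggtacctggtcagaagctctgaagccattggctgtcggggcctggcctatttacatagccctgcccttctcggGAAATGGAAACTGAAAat
Oas3 (chr5:120777665-120777784, - strand): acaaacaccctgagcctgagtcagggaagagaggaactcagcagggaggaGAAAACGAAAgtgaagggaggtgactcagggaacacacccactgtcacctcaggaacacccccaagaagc
Isg15 (chr4:156200819-156200938, - strand): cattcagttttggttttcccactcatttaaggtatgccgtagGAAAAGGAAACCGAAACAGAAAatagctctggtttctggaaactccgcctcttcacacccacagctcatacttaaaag
Trim30a (chr7:104465194-104465313, - strand): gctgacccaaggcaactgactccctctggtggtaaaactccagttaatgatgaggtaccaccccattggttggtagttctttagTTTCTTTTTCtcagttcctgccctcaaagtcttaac
Lgals3bp (chr11:118401960-118402079, - strand): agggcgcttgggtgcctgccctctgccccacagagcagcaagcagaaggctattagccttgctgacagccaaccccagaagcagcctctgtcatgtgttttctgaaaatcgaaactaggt
Xaf1 (chr11:72301509-72301628, + strand): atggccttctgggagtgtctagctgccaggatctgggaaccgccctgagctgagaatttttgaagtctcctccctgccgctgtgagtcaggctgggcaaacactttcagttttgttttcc

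The capitals of Isg15, which encodes a ubiquitin-like protein joined to other proteins, hold 3 overlapping matches, the first 78 bases before the start. Those of Oas1a and Oas1g, whose products make the oligoadenylates that activate RNase L, hold 2 overlapping matches each and lie 20 and 18 bases before their starts. In Bst2, which encodes tetherin, a protein that holds virus particles at the cell surface, the first of 2 matches lies 130 bases before the start and overlaps a match to the GAS letters. The match of Trim30a is on the opposite strand. Lgals3bp, a secreted glycoprotein that binds galectins, and Xaf1, a partner of the apoptosis inhibitor XIAP, had no match to these letters in their windows.

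Per length, Ifi27l2a, a small mitochondrial protein induced by interferon, had the highest level, at 863 CPM per kb of exon as the mean of the 4 group means. It was followed by Bst2 at 249, the transcription factor Irf7 at 180.5, Lgals3bp at 145 and Isg15 at 123 CPM per kb. The order differed between groups: Irf7 (269) was above Bst2 (260.0) in Ly6Chigh cells of Mock-LLC tumours, and Lgals3bp was above Irf7 in Ly6Clow cells of SULT2B1b-LLC (151 and 104) and Mock-LLC tumours (97.0 and 73.9). Isg15 was above Lgals3bp in Ly6Chigh cells of SULT2B1b-LLC (202 and 190) and Mock-LLC tumours (181 and 143). The lowest by the same mean of groups was Herc6, the ligase that attaches Isg15 in the mouse, at 2.85 CPM per kb. Summed over the 40 genes, Ly6Chigh cells of SULT2B1b-LLC tumours 1 to 4 held 8112, 7833, 8621 and 6769 CPM, against 8038, 6401, 6832 and 7807 CPM in those of Mock-LLC tumours. Ly6Clow cells of SULT2B1b-LLC tumours 2 to 4 held 3976, 4767 and 3467 CPM, against 3022, 2866, 3118 and 3217 CPM in those of Mock-LLC tumours. The sum thus separated all Ly6Chigh from all Ly6Clow libraries, separated the tumour types in Ly6Clow cells and overlapped between them in Ly6Chigh cells.

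**Figure D1:**
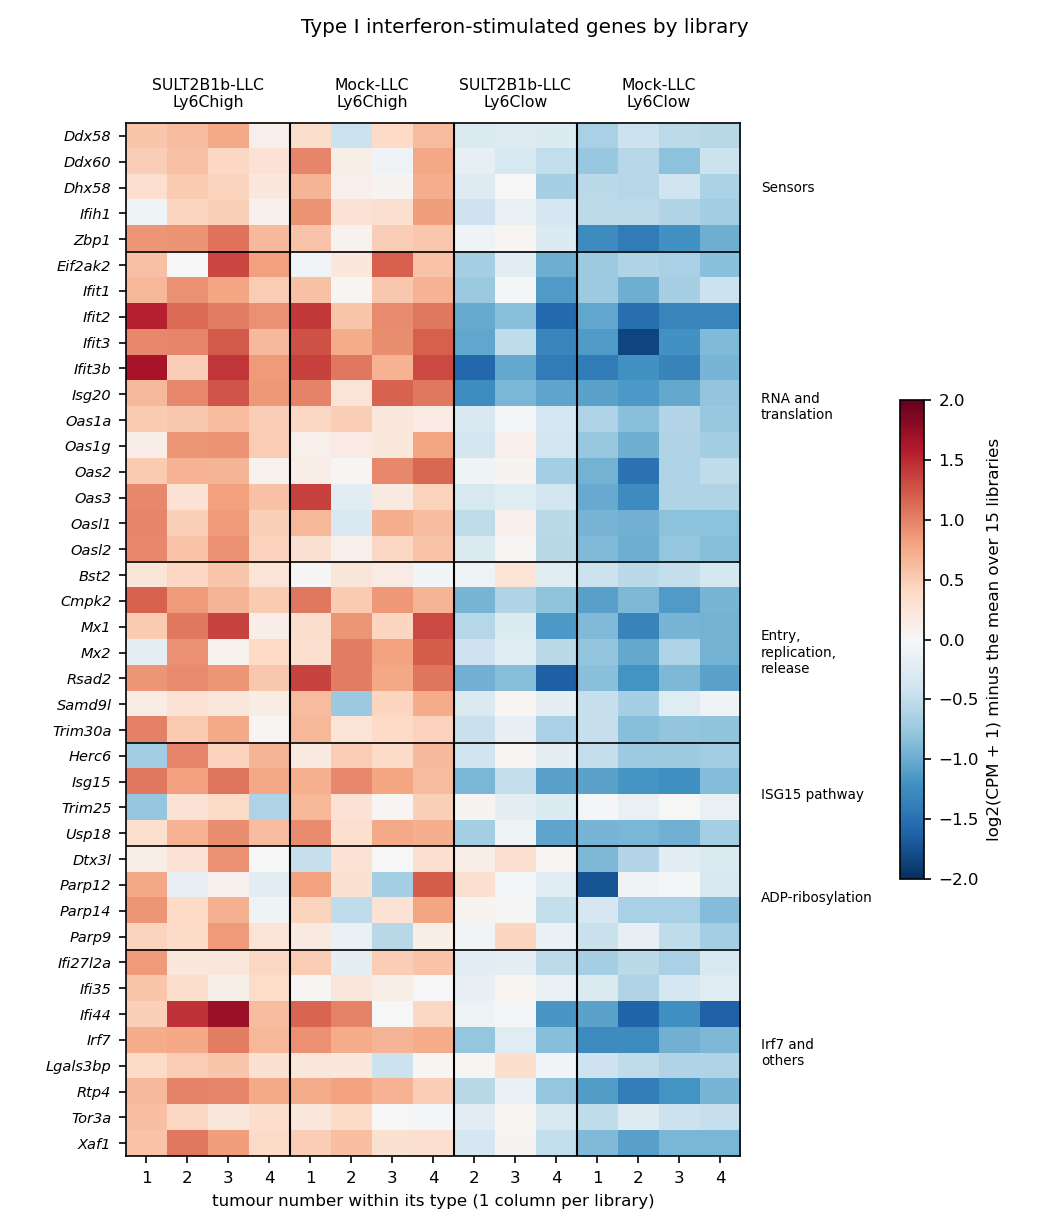
Level of each of the 40 genes (rows, grouped by role) in each of the 15 libraries (columns, by group and tumour number), as log2(CPM + 1) minus the gene's mean over all libraries; red is above and blue below that mean. The Ly6Chigh columns on the left, with summed levels of 6401 CPM or more, are red for most genes, and the Mock-LLC Ly6Clow columns on the right, with 3217 CPM or less, are the bluest.

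The levels of Ly6Chigh and Ly6Clow cells were compared within each tumour type. The interferon-stimulated genes were higher in Ly6Chigh cells of SULT2B1b-LLC tumours for 20 of 40 genes, and of Mock-LLC tumours for 35 of 40, by edgeR's quasi-likelihood test at a Benjamini-Hochberg adjusted p under 0.05. Over all genes tested, 1.1% passed as higher in SULT2B1b-LLC tumours and 3.55% in Mock-LLC tumours (2.64% and 8.41% in either direction). None of the 40 was lower, where 1.54% and 4.86% of all genes tested passed as lower. At an unadjusted p under 0.05 there were 35 of 40 in SULT2B1b-LLC tumours and 38 in Mock-LLC tumours, against 14.8% and 22.5% of all genes tested. The fitted log2 fold change was above 0 for all 40 genes in both tumour types, with a median of 0.92 (0.04 to 2.65) in SULT2B1b-LLC tumours, where all genes tested had a median of -0.03 and 48.1% of them were above 0. In Mock-LLC tumours the median was 1.22 (0.38 to 2.503), where all genes tested had -0.08 and 45.7% were above 0. Every Ly6Chigh library was above every Ly6Clow library for 32 of the 40 genes in SULT2B1b-LLC tumours and for 34 in Mock-LLC tumours, against 5.57% and 6.46% of all genes tested. For none of the 40 was every Ly6Chigh library below, where this held for 13.9% and 15.8% of all genes tested.

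The 20 genes past the threshold in SULT2B1b-LLC tumours were all past it in Mock-LLC tumours as well, and the 5 past it in neither were Dtx3l, Parp12, Parp9, Samd9l and Trim25. With DESeq2 31 genes passed in SULT2B1b-LLC tumours (7.33% of all genes it tested) and 37 in Mock-LLC tumours (14.7%). With limma-voom and quality weights these were 29 and 35, with median-ratio factors 25 and 36, and with no filter on low counts 16 and 30. Fits can differ in how many of all genes tested they call. For these fits and the block below that share is not given here, so their counts cannot be set beside it. The labels name the same numbered tumour as the source of both populations, though the deviations of such pairs correlated at 0.0936 at most, and with the tumour as a block 18 genes passed in SULT2B1b-LLC tumours and 33 in Mock-LLC tumours. In SULT2B1b-LLC tumours the block lost Eif2ak2, Oasl1 and Tor3a, with adjusted p of 0.0589 to 0.133, and gained Ifi44. In Mock-LLC tumours it lost Ddx58 and Ifi35, with adjusted p of 0.0530 and 0.104. With tumour 4's Ly6Clow library of SULT2B1b-LLC left out the count in that tumour type was 12, and with tumour 1's Ly6Chigh library left out it was 21.

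Of the nucleic acid sensors, 1 of 5 passed in SULT2B1b-LLC tumours (Zbp1) and 5 of 5 in Mock-LLC tumours, while DESeq2 and limma-voom with quality weights each called all 5 in both tumour types. Zbp1 binds nucleic acid in the Z form and can start necroptosis. In tumour order, Zbp1 had 307, 309.6, 353 and 261 CPM in Ly6Chigh cells of SULT2B1b-LLC tumours, against 157, 171 and 138 CPM in Ly6Clow cells of tumours 2 to 4. Its levels in Mock-LLC tumours were 248, 174, 235 and 241 CPM in Ly6Chigh cells, against 69.1, 62.3, 71.0 and 83.6 CPM in Ly6Clow cells. No library of one population reached the other, and the rise was 1.98-fold (log2 0.99 ± 0.15) in SULT2B1b-LLC tumours (adjusted p = 0.00229) and 3.14-fold (log2 1.65 ± 0.14) in Mock-LLC tumours (adjusted p = 4.86e-06), where ± is the standard error. The smallest difference among the sensors in Mock-LLC tumours was that of Ddx58, which encodes RIG-I, a sensor of viral RNA. Ddx58 was measured at 137, 146, 160.0 and 101 CPM in Ly6Chigh cells of SULT2B1b-LLC tumours, against 76.4, 78.1 and 77.4 CPM in Ly6Clow cells. In Mock-LLC tumours Ddx58 stood at 120.03, 69.6, 124 and 146 CPM in Ly6Chigh cells, against 59.4, 69.0, 64.6 and 63.2 CPM in Ly6Clow cells, where the lowest Ly6Chigh library was just above the highest Ly6Clow library. The fold was 1.76 in SULT2B1b-LLC tumours (adjusted p = 0.0555) and 1.79 in Mock-LLC tumours (adjusted p = 0.0140). Ifih1, which encodes the RNA sensor MDA5, rose 2.31-fold in Mock-LLC tumours, and its fold in SULT2B1b-LLC tumours was 1.47 (adjusted p = 0.138).

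The genes that act on RNA and translation gave the largest count, 9 of 12 in SULT2B1b-LLC tumours and 12 of 12 in Mock-LLC tumours. The Ifit genes, whose products bind foreign RNA and block its translation, include the largest fold of the 40 in both tumour types, that of Ifit3b. Ifit3b had 56.0, 24.5, 47.7 and 31.6 CPM in Ly6Chigh cells of SULT2B1b-LLC tumours, against 5.09, 7.97 and 5.88 CPM in Ly6Clow cells. Its Mock-LLC levels were 46.0, 36.9, 28.5 and 44.3 CPM in Ly6Chigh cells, against 5.87, 6.87, 6.22 and 8.49 CPM in Ly6Clow cells. The populations lay far apart in both tumour types, and Ifit3b rose 6.297-fold in SULT2B1b-LLC tumours (adjusted p = 0.000398) and 5.67-fold in Mock-LLC tumours (adjusted p = 0.000122). Its near-identical copy Ifit3 rose 3.76-fold and 4.95-fold, and Ifit2, a more distant relative, 4.91-fold in SULT2B1b-LLC and 5.02-fold in Mock-LLC tumours. Ifit1 rose less, 2.47-fold and 2.28-fold. Isg20, an RNA exonuclease, rose 4.24-fold in SULT2B1b-LLC and 3.94-fold in Mock-LLC tumours. The smallest difference of this role in Mock-LLC tumours was that of Oas1a, the oligoadenylate synthetase gene with the paired ISRE letters shown above. Oas1a was measured at 210.1, 215, 229 and 206 CPM in Ly6Chigh cells of SULT2B1b-LLC tumours, against 119, 143 and 115 CPM in Ly6Clow cells. In Mock-LLC tumours Oas1a stood at 195, 207, 171 and 165 CPM in Ly6Chigh cells, against 95.5, 81.8, 97.0 and 86.5 CPM in Ly6Clow cells. The populations did not overlap, and the rise was 1.71-fold (log2 0.78 ± 0.12) in SULT2B1b-LLC tumours (adjusted p = 0.00289) and 2.04-fold (log2 1.03 ± 0.11) in Mock-LLC tumours (adjusted p = 5.79e-05).

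Of the genes that act on virus entry, replication and release, 4 of 7 passed in SULT2B1b-LLC tumours and 6 of 7 in Mock-LLC tumours. Rsad2, which encodes viperin, an enzyme that makes a chain-terminating nucleotide, had the largest difference in Mock-LLC tumours. Rsad2 had 253, 263, 254 and 199 CPM in Ly6Chigh cells of SULT2B1b-LLC tumours, against 69.8, 75.01 and 43.3 CPM in Ly6Clow cells. In Mock-LLC tumours Rsad2 stood at 351, 280.4, 235 and 289 CPM in Ly6Chigh cells, against 76.2, 58.9, 72.9 and 64.7 CPM in Ly6Clow cells. The rise was 3.86-fold in SULT2B1b-LLC tumours (adjusted p = 4.34e-05) and 4.24-fold in Mock-LLC tumours (adjusted p = 4.82e-06), with no overlap. Its neighbour Cmpk2, a nucleotide kinase of mitochondria, rose 3.08-fold and 3.56-fold in the same tumour types. Bst2 had the smallest difference of this role in Mock-LLC tumours, whereas in SULT2B1b-LLC tumours it was that of Samd9l (1.27-fold, adjusted p = 0.605). Bst2 was measured at 259, 291, 321 and 264 CPM in Ly6Chigh cells of SULT2B1b-LLC tumours, against 209, 265 and 186 CPM in Ly6Clow cells, and these overlapped. In Mock-LLC tumours Bst2 stood at 223, 259, 245 and 212 CPM in Ly6Chigh cells, against 162, 150.1, 157 and 172 CPM in Ly6Clow cells, without overlap. The fold was 1.29 in SULT2B1b-LLC tumours (adjusted p = 0.179), and Bst2 rose 1.46-fold in Mock-LLC tumours (adjusted p = 0.0116).

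The Isg15 pathway attaches Isg15 to proteins and removes it again. Isg15 and Usp18, the protease that removes it and also damps the receptor, passed in both tumour types, and Trim25, a ubiquitin ligase that acts with RIG-I, passed in neither. Herc6 had folds of 1.59 in SULT2B1b-LLC tumours (adjusted p = 0.337) and 2.19 in Mock-LLC tumours (adjusted p = 0.0254), and the test of their difference gave an adjusted p of 0.973. Isg15 had 166, 140.1, 168 and 137 CPM in Ly6Chigh cells of SULT2B1b-LLC tumours, against 41.3, 56.5 and 36.8 CPM in Ly6Clow cells. In Mock-LLC tumours Isg15 stood at 130.3, 155, 138 and 123 CPM in Ly6Chigh cells, against 37.0, 34.4, 33.3 and 43.1 CPM in Ly6Clow cells. Every Ly6Chigh library was thus above every Ly6Clow library, and the rise was 3.40-fold (log2 1.76 ± 0.17) in SULT2B1b-LLC tumours (adjusted p = 3.20e-05) and 3.69-fold (log2 1.89 ± 0.16) in Mock-LLC tumours (adjusted p = 3.22e-06). Trim25 was measured at 112, 232, 249 and 124 CPM in Ly6Chigh cells of SULT2B1b-LLC tumours, against 199, 169 and 158 CPM in Ly6Clow cells. In Mock-LLC tumours Trim25 stood at 304, 234, 196 and 265 CPM in Ly6Chigh cells, against 185, 172, 192 and 172 CPM in Ly6Clow cells. The Ly6Chigh libraries of SULT2B1b-LLC tumours spread to both sides of their Ly6Clow libraries, with folds of 1.03 in SULT2B1b-LLC tumours (adjusted p = 0.970) and 1.39 in Mock-LLC tumours (adjusted p = 0.231).

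The genes of ADP-ribosylation had the lowest counts, 0 of 4 in SULT2B1b-LLC tumours and 1 of 4 (Parp14) in Mock-LLC tumours. Parp12, an ADP-ribosyltransferase, had 125, 64.1, 76.5 and 61.8 CPM in Ly6Chigh cells of SULT2B1b-LLC tumours, against 90.8, 71.1 and 60.8 CPM in Ly6Clow cells. Parp12 levels in Mock-LLC tumours were 127, 89.4, 44.6 and 169 CPM in Ly6Chigh cells, against 21.1, 68.9, 70.7 and 57.9 CPM in Ly6Clow cells. The populations overlapped in both tumour types and the libraries of 1 group differed several-fold, which left 95% intervals of -0.78 to 1.04 (SULT2B1b-LLC) and 0.13 to 1.82 (Mock-LLC) for its log2 fold change. Parp9, which works in a complex with the ubiquitin ligase Dtx3l, was measured at 109, 104, 144 and 96.3 CPM in Ly6Chigh cells of SULT2B1b-LLC tumours, against 76.1, 107 and 72.1 CPM in Ly6Clow cells. In Mock-LLC tumours Parp9 stood at 89.9, 72.0, 53.9 and 87.4 CPM in Ly6Chigh cells, against 57.9, 70.7, 55.6 and 49.3 CPM in Ly6Clow cells. These overlapped as well, with folds of 1.33 (adjusted p = 0.400) and 1.30 (adjusted p = 0.280).

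Irf7, which amplifies the interferon response, and 7 other genes formed the last group, of which 4 of 8 passed in SULT2B1b-LLC tumours and 8 of 8 in Mock-LLC tumours. Irf7 had 991, 1014, 1206 and 942 CPM in Ly6Chigh cells of SULT2B1b-LLC tumours, against 348, 500.3 and 330.1 CPM in Ly6Clow cells. In Mock-LLC tumours Irf7 stood at 1127, 993, 953 and 992 CPM in Ly6Chigh cells, against 246, 247, 306 and 318 CPM in Ly6Clow cells. The populations were separated by a wide gap, and Irf7 rose 2.64-fold (log2 1.40 ± 0.16) in SULT2B1b-LLC tumours (adjusted p = 0.000114) and 3.64-fold (log2 1.86 ± 0.14) in Mock-LLC tumours (adjusted p = 1.59e-06). Ifi44, an interferon-induced protein of less known function, was measured at 29.2, 58.3, 69.7 and 32.1 CPM in Ly6Chigh cells of SULT2B1b-LLC tumours, against 19.3, 20.1 and 8.66 CPM in Ly6Clow cells. In Mock-LLC tumours Ifi44 stood at 47.5, 42.0, 20.7 and 28.0 CPM in Ly6Chigh cells, against 9.27, 6.11, 8.25 and 6.04 CPM in Ly6Clow cells. There was no overlap, but the Ly6Chigh libraries varied by more than the gap in both tumour types. The fold was 2.96 in SULT2B1b-LLC tumours (adjusted p = 0.0560), and Ifi44 rose 4.66-fold in Mock-LLC tumours (adjusted p = 0.00210). Ifi35 had the smallest difference of this group in Mock-LLC tumours. It had 114, 99.1, 84.1 and 99.9 CPM in Ly6Chigh cells of SULT2B1b-LLC tumours, against 69.2, 79.8 and 70.6 CPM in Ly6Clow cells. In Mock-LLC tumours Ifi35 stood at 78.7, 91.4, 83.9 and 77.0 CPM in Ly6Chigh cells, against 63.6, 50.5, 60.7 and 65.3 CPM in Ly6Clow cells. The groups did not overlap, and the folds were 1.35 (adjusted p = 0.140) and 1.38 (adjusted p = 0.0444).

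**Figure D2:**
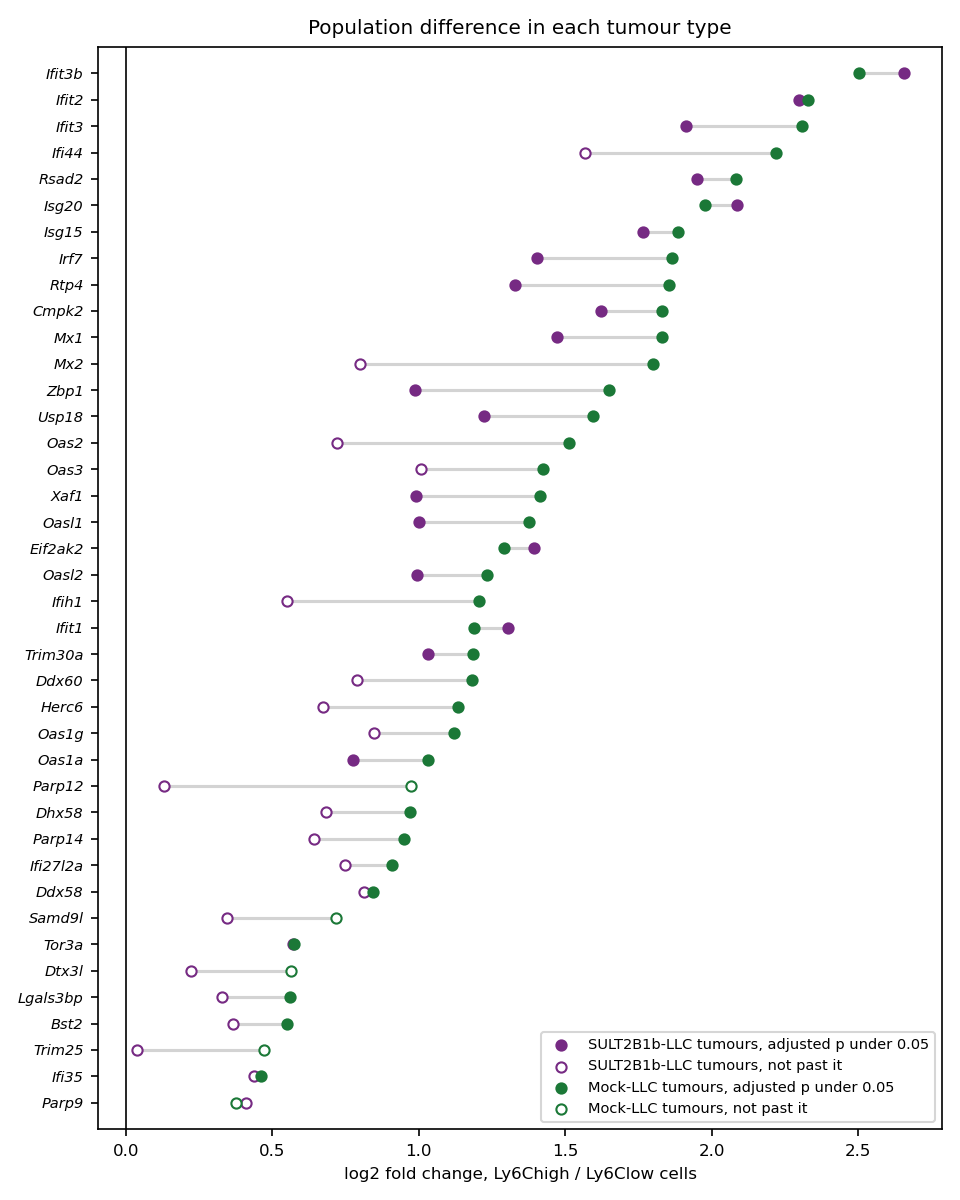
Fitted log2 fold change of Ly6Chigh over Ly6Clow cells for each of the 40 genes in SULT2B1b-LLC tumours (purple) and Mock-LLC tumours (green), with filled points for an adjusted p under 0.05 and a grey line joining the values of a gene. All points are at or right of 0.04, and the purple point is left of the green one for 35 of 40 genes.

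The next comparison set SULT2B1b-LLC against Mock-LLC tumours in Ly6Clow cells. Zbp1 alone passed the threshold, at 1 of 40 genes where 0.638% of all genes tested passed (0.507% as higher and 0.13% as lower). The fitted log2 fold change was above 0 for 36 of the 40 genes, against 46.8% of all genes tested, with a median of 0.36 (-0.12 to 1.12) where all genes had -0.02. For 18 of 40 genes every SULT2B1b-LLC library was above every Mock-LLC library, against 7.59% of all genes tested, and for none was every SULT2B1b-LLC library below, where this held for 8.55% of all genes. At an unadjusted p under 0.05 there were 14 of 40, all higher, against 3.74% of all genes tested. With tumour 3 of SULT2B1b-LLC left out these were 7, with a median log2 fold change of 0.29 and Zbp1 still past the threshold. Fitted on Ly6Clow libraries alone, 5 genes passed, all higher: Lgals3bp, Oas1a, Oasl2, Xaf1 and Zbp1. That fit also called several times as many genes in all as the fit of all groups, as given with the alternatives below. The larger count is therefore not particular to the 40 genes. The fit of all groups shares its estimate of the spread with the Ly6Chigh libraries, whose replicates correlated at a median of 0.787 and 0.830 (SULT2B1b-LLC and Mock-LLC), where Ly6Clow replicates correlated at 0.971 and 0.968.

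Zbp1 averaged 155 ± 16.6 CPM in Ly6Clow cells of SULT2B1b-LLC tumours (SD, n = 3) and 71.5 ± 8.86 CPM in those of Mock-LLC tumours (SD, n = 4). Its lowest SULT2B1b-LLC library was above its highest Mock-LLC library. It rose 2.17-fold (log2 1.12 ± 0.15) (adjusted p = 0.00119), and over the other settings tried and each library left out its log2 fold change ran from 1.06 to 1.23 with the call kept. Ifi44 averaged 16.01 ± 6.38 CPM in SULT2B1b-LLC and 7.42 ± 1.60 CPM in Mock-LLC tumours. The fold of 2.16 was nearly as large as that of Zbp1, but tumour 4 of SULT2B1b-LLC lay within the Mock-LLC libraries and the adjusted p was 0.627.

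Xaf1 stood at 49.0, 64.8 and 43.9 CPM in SULT2B1b-LLC tumours, against 33.3, 28.9, 32.7 and 32.6 CPM in Mock-LLC tumours. The groups did not overlap, and the difference was 1.65-fold (log2 0.72 ± 0.18) with an adjusted p of 0.133. Rtp4, a chaperone of membrane receptors induced by interferon, stood at 87.5, 117 and 75.7 CPM, against 59.3, 48.9, 55.8 and 67.4 CPM in Mock-LLC tumours. These groups did not overlap either, and the difference was 1.62-fold (log2 0.69 ± 0.16) with an adjusted p of 0.0813. Dtx3l stood at 50.3, 58.7 and 47.6 CPM, against 24.4, 30.6, 39.49 and 37.9 CPM in Mock-LLC tumours, again without overlap and with a fold of 1.58 (adjusted p = 0.869). Lgals3bp came nearest to the threshold after Zbp1. It stood at 405, 506 and 382 CPM, against 298, 281, 262 and 263 CPM in Mock-LLC tumours, with a difference of 1.56-fold (log2 0.64 ± 0.15) and an adjusted p of 0.0778. Among genes with the ISRE letters shown above, Oas1a averaged 126 ± 14.9 CPM in SULT2B1b-LLC and 90.2 ± 7.26 CPM in Mock-LLC tumours (adjusted p = 0.144). Bst2 averaged 220.1 ± 40.5 CPM, against 160.3 ± 9.26 CPM in Mock-LLC tumours (adjusted p = 0.260).

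Irf7 averaged 393 ± 93.6 CPM in Ly6Clow cells of SULT2B1b-LLC tumours, against 279 ± 38.0 CPM in those of Mock-LLC tumours, with no overlap, a fold of 1.41 and an adjusted p of 0.338. Several of the genes with the largest population differences had values near 0 or below it between tumour types. Rsad2 averaged 62.7 ± 17.0 CPM, against 68.2 ± 7.81 CPM in Mock-LLC tumours, Ifit3b 6.31 ± 1.49, against 6.86 ± 1.16 CPM, and Isg20 14.96 ± 1.77, against 15.7 ± 1.87 CPM. These 3 and Trim25 were the genes with a log2 fold change below 0, at -0.12, -0.12, -0.07 and -0.04. The 95% interval of the log2 fold change was -0.52 to 0.28 for Rsad2 and -0.78 to 0.54 for Ifit3b. By role, the median log2 fold change was 0.29 for the sensors, 0.40 for the RNA and translation genes, 0.32 for entry, replication and release, 0.30 for the Isg15 pathway, 0.52 for ADP-ribosylation and 0.57 for Irf7 and the others.

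**Figure D3:**
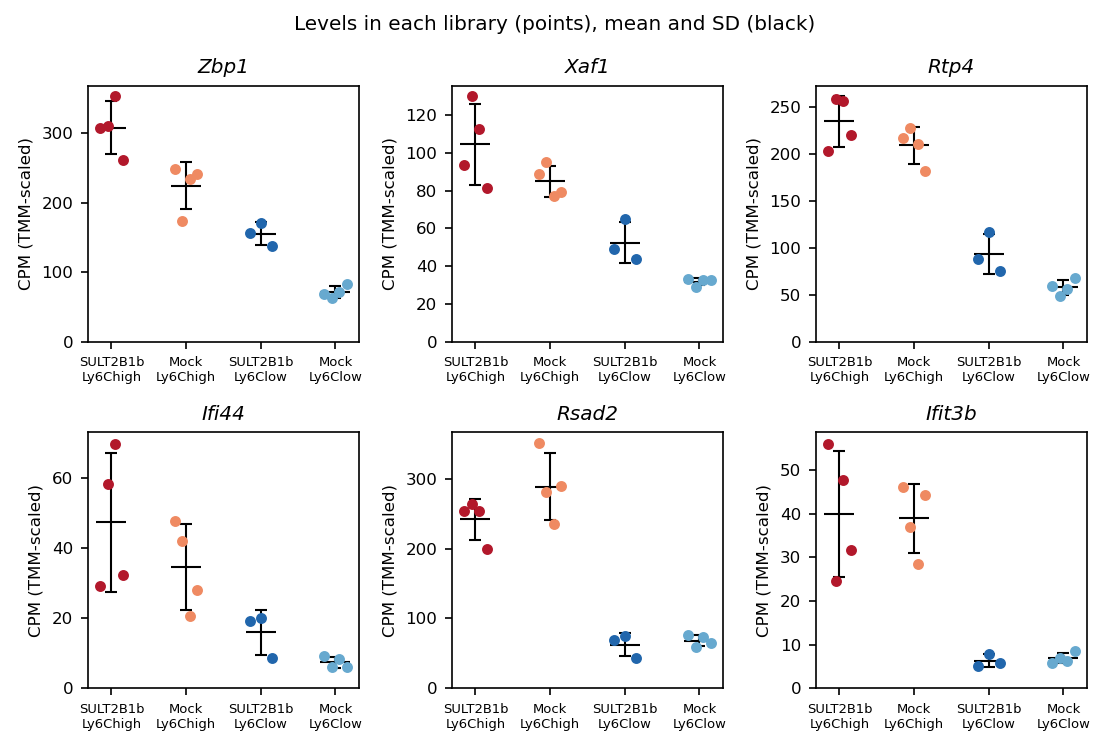
Level of 6 of the genes in each library (points, CPM on a linear axis that starts at 0), with mean and SD in black, for the 4 groups. Zbp1, Xaf1 and Rtp4 in Ly6Clow cells are higher in all SULT2B1b-LLC libraries than in any Mock-LLC library, whereas Rsad2 and Ifit3b differ between the populations and overlap between the tumour types.

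In Ly6Chigh cells no gene of the 40 passed the threshold between SULT2B1b-LLC and Mock-LLC tumours, where 1.62% of all genes tested did (0.891% as higher and 0.725% as lower), and the lowest adjusted p was 0.114 (Zbp1). DESeq2 called 2 of them, Lgals3bp and Zbp1, and 1211 genes in all, where edgeR called 223. The log2 fold change was above 0 for 29 of 40 genes, against 52.1% of all genes tested, with a median of 0.15 (-0.53 to 0.58) where all genes had 0.03. At an unadjusted p under 0.05 there were 6 of 40, against 15.6% of all genes tested, 5 of them higher. For 4 genes (Bst2, Lgals3bp, Parp9 and Zbp1) every SULT2B1b-LLC library was above every Mock-LLC library, against 2.78% of all genes tested, and for none was every one below, against 2.75% of all. The median was 0.05 with tumour 2 of Mock-LLC left out, and 0.13 with tumour 1 of SULT2B1b-LLC left out, with no gene past the threshold in either case. The 95% interval of a single gene's log2 fold change reached as far as -1.25 on the low side and 1.23 on the high side. Such an interval gives the changes not excluded for its gene and is not a limit of detection.

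Zbp1 averaged 308 ± 37.7 CPM in Ly6Chigh cells of SULT2B1b-LLC tumours and 224 ± 34.0 CPM in those of Mock-LLC tumours (SD, n = 4 each). The groups did not overlap, with a difference of 1.37-fold (log2 0.45 ± 0.14) and a 95% interval of 0.16 to 0.75 for the log2 value. Parp9 averaged 113 ± 21.1 CPM in SULT2B1b-LLC and 75.8 ± 16.6 CPM in Mock-LLC tumours, without overlap and with a difference of 1.49-fold (log2 0.58 ± 0.20) (adjusted p = 0.148). Lgals3bp stood at 519, 566, 588 and 492 CPM in SULT2B1b-LLC tumours, against 468, 462, 295 and 404 CPM in Mock-LLC tumours, and its adjusted p was 0.142. Its lowest SULT2B1b-LLC library was above its highest Mock-LLC library. Of the genes with the largest differences here, Mx2 and Trim25 pointed the other way. Mx2, which belongs to the Mx GTPase family and is listed in the annotation as a polymorphic pseudogene, stood at 18.6, 40.6, 22.2 and 28.3 CPM in SULT2B1b-LLC tumours, against 26.8, 44.2, 37.4 and 50.3 CPM in Mock-LLC tumours, and the groups overlapped. Its log2 fold change of -0.53 had an interval of -1.11 to 0.05 (adjusted p = 0.381). Trim25 averaged 179 ± 71.4 CPM in SULT2B1b-LLC and 249.6 ± 45.8 CPM in Mock-LLC tumours, and tumours 1 and 4 of SULT2B1b-LLC were lower than the rest. Irf7 averaged 1038 ± 116 CPM in SULT2B1b-LLC and 1016 ± 76.1 CPM in Mock-LLC tumours, and the interval of its log2 fold change was -0.26 to 0.33. Ifi27l2a, the most abundant gene per length, stood at 692, 443, 449.5 and 509.6 CPM in SULT2B1b-LLC tumours, against 544, 338, 537 and 572 CPM in Mock-LLC tumours, with wide overlap.

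**Figure D4:**
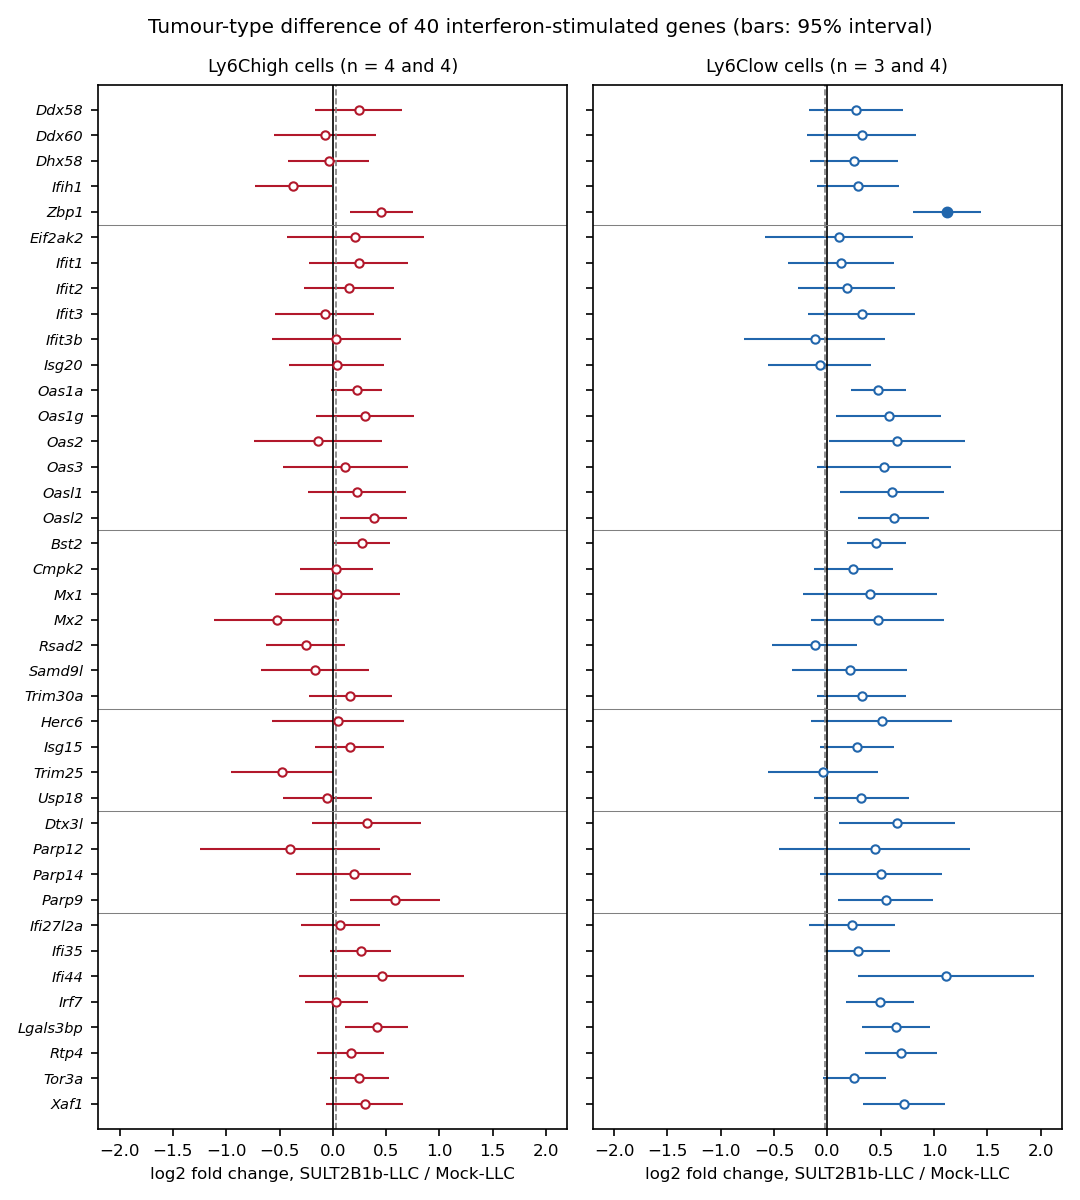
Fitted log2 fold change of SULT2B1b-LLC over Mock-LLC tumours with its 95% interval for the 40 genes (rows, grouped by role) in Ly6Chigh cells (left) and Ly6Clow cells (right); filled points have an adjusted p under 0.05 and the dashed line is the median of all genes tested. Zbp1 in Ly6Clow cells, at 1.12, is the filled point, and 36 of 40 values there are above 0, against 29 of 40 in Ly6Chigh cells.

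Whether the tumour-type difference itself differed between the populations was tested as the interaction, in which a value below 0 means a smaller SULT2B1b-LLC over Mock-LLC difference in Ly6Chigh than in Ly6Clow cells. No gene of the 40 passed (adjusted p of 0.451 to 1), where 0.0145% of all genes tested did, and DESeq2 called none of them either. The value was above 0 for 5 of 40 genes, against 53.3% of all genes tested, with a median of -0.30 (-0.999 to 0.15) where all genes had 0.05. At an unadjusted p under 0.05 there were 5 of 40, against 7.14% of all genes tested, and all 5 were below 0. These were Zbp1 (-0.66 ± 0.20), Ifih1 (-0.66 ± 0.25), Mx2 (-0.999 ± 0.40), Rtp4 (-0.53 ± 0.22) and Irf7 (-0.46 ± 0.20). With tumour 3's Ly6Clow library of SULT2B1b-LLC left out the median was -0.15 and 1 gene remained at that unadjusted p. The same values read the other way give the smaller population difference in SULT2B1b-LLC tumours for 35 of 40 genes.

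Most of the 40 genes had the same order of libraries in Ly6Clow cells of SULT2B1b-LLC tumours. Of the Ly6Clow libraries of SULT2B1b-LLC tumours, that of tumour 3 was highest for 36 of 40 genes, where it was highest for 34.03% of all genes tested. That of tumour 4 was lowest for 32 of 40, where it was lowest for 35.16% of all. In Mock-LLC tumours the Ly6Clow library of tumour 2 was lowest for 21 of 40 genes (33.24% of all genes tested). In Ly6Chigh cells of SULT2B1b-LLC tumours, tumour 3 was highest for 18 of 40 (22.42% of all genes tested) and tumour 4 lowest for 24 of 40 (19.42%). In Ly6Chigh cells of Mock-LLC tumours, tumour 2 was lowest for 17 of 40 (33.3% of all genes tested) and tumour 1 highest for 16 of 40 (24.56%). No test of these orders was made.

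The genes upstream of the 40 were read in the same libraries. Of 21 interferon genes (Ifnb1, the interferon alphas, Ifng and others), none had enough counts to be tested and 7 had no count in any library. The Ly6Chigh library of tumour 1 of SULT2B1b-LLC, which stood apart above, had counts for 7 of the 21 and 15.5 CPM summed, where the other libraries had at most 5 of them and at most 1.95 CPM. The largest count of 1 interferon gene in a library was 15, for Ifnb1 in Ly6Chigh cells of SULT2B1b-LLC tumour 2. Ifnb1, the gene of interferon beta, had no count in the other Ly6Chigh libraries of either tumour type. In Ly6Clow cells it had 4, 3 and 1 counts in SULT2B1b-LLC tumours and 10, 5, 8 and 8 counts in Mock-LLC tumours. Of 8 receptor and kinase genes tested, none passed between tumour types in either population. Ifnar1 averaged 258 ± 10.3 CPM in Ly6Clow cells of SULT2B1b-LLC tumours and 233 ± 14.4 CPM in those of Mock-LLC tumours, with a fold of 1.11. The folds in Ly6Clow cells were 1.05 for Ifnar2, 1.04 for Jak1 and 1.12 for Tyk2, and in Ly6Chigh cells 0.966 for Ifnar1, 1.02 for Ifnar2, 0.943 for Jak1 and 0.778 for Tyk2.

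Of the transcription factor genes described here, Irf1, a factor induced by interferons, rose in SULT2B1b-LLC tumours 1.85-fold in Ly6Chigh cells (adjusted p = 0.0436) and 2.49-fold in Ly6Clow cells (adjusted p = 0.00802). Stat2 and Irf9 did not pass. Stat2 had folds of 1.07 in Ly6Chigh cells (adjusted p = 0.893) and 1.43 in Ly6Clow cells (adjusted p = 1.00), and Irf9 of 1.04 (adjusted p = 0.937) and 1.18 (adjusted p = 1.00). Of 11 sensor and adaptor genes outside the 40, Tmem173, which encodes the DNA-pathway adaptor STING, rose 1.77-fold in Ly6Chigh cells (adjusted p = 0.00265) and 1.70-fold in Ly6Clow cells (adjusted p = 0.00501), and no other passed. Of the 5 negative regulators none passed between tumour types. Between the populations in Mock-LLC tumours, Stat2, Irf1, Irf2 and Irf9 were among the genes higher in Ly6Chigh cells, and Irf8 was lower. In SULT2B1b-LLC tumours Irf2 passed as higher.

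Further interferon lists were read beside the 40 genes, with earlier results of these data known. Of 15 guanylate-binding protein and immunity-related GTPase genes tested (16 listed), which respond to interferon gamma and to type I interferon and act on the vacuoles of microbes, 3 were higher in SULT2B1b-LLC than in Mock-LLC tumours in Ly6Chigh cells and 12 in Ly6Clow cells. Their median log2 fold changes were 0.88 and 1.51, where the 40 genes had 0.15 and 0.36. Of 10 genes that respond mainly to interferon gamma, 6 were higher in Ly6Chigh cells and 9 in Ly6Clow cells, with medians of 0.73 and 1.49. Cxcl9, a chemokine of that list that draws T cells, rose with log2 fold changes of 2.45 and 3.92 in those populations, and Iigp1, an immunity-related GTPase, with 1.95 and 2.97. Irf1 is in the second of these lists and among the transcription factors above. That list also holds H2-Aa, H2-Ab1 and H2-Eb1 of MHC class II, with Cd74 and Ciita of the same pathway. MHC-II is named in the sort of Ly6Chigh cells, and the part of the sort or of cell content in these medians was not tested. No test compared the lists with each other.

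**Figure D5:**
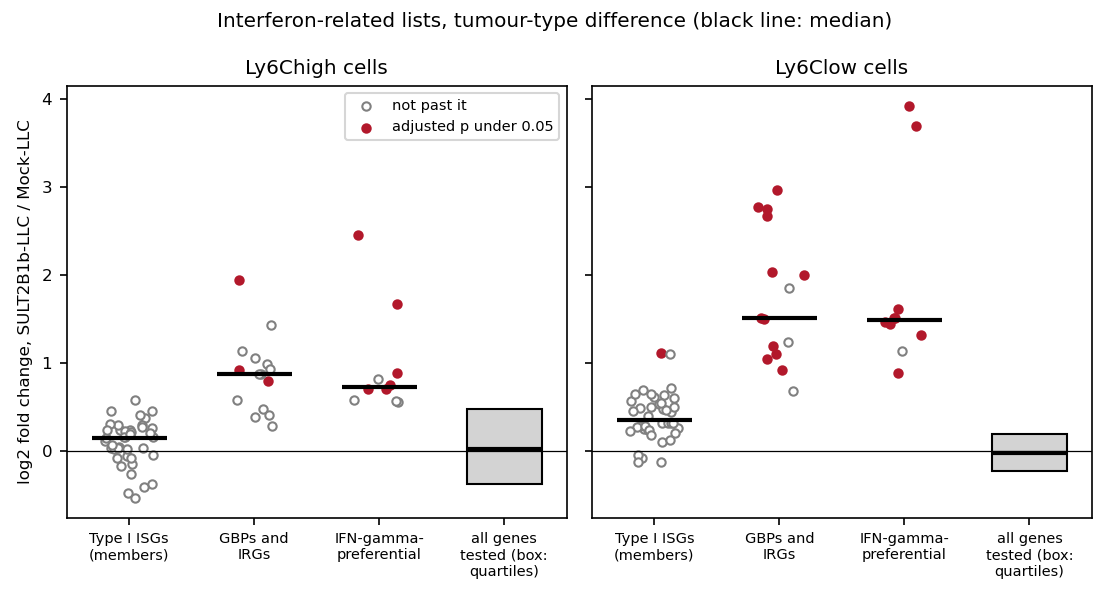
Fitted log2 fold change of SULT2B1b-LLC over Mock-LLC tumours for the 40 type I interferon-stimulated genes, the guanylate-binding proteins and immunity-related GTPases, and the interferon-gamma-preferential genes (points, red for an adjusted p under 0.05, black line for the median), beside the quartiles of all genes tested (box), in Ly6Chigh cells (left) and Ly6Clow cells (right). In Ly6Clow cells the medians are 0.36, 1.51 and 1.49, and 1 of 40, 12 of 15 and 9 of 10 points are red.

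Markers of cell types moved with some of these comparisons, and their part in the results was not tested. Summed macrophage markers (9 genes, C1qa, Apoe and Mrc1 among them) held 26937 to 28204 CPM in Ly6Clow cells of SULT2B1b-LLC tumours, against 16924 to 20402 CPM in those of Mock-LLC tumours, and 2 of the 9 passed as higher. In Ly6Chigh cells they held 11117 to 15336 CPM, against 9343 to 10958 CPM in Mock-LLC tumours, and 4 of 9 passed as higher. Summed markers of type 1 conventional dendritic cells (6 genes) were higher in SULT2B1b-LLC than in Mock-LLC tumours in both populations. They held 924 to 1056 CPM, against 520 to 611 CPM, in Ly6Clow cells. In Ly6Chigh cells they held 811 to 876 CPM, against 413 to 627 CPM. In each population 1 of the 6 passed as higher. The log2 fold change was above 0 for 4 of the 6 in each, so these markers did not all move with their sum. Eosinophil markers (8 genes, 6 tested) held 301 to 389 CPM in Ly6Clow cells of SULT2B1b-LLC tumours, against 203 to 270 CPM in those of Mock-LLC tumours, with none past the threshold. Between the populations, the classical monocyte markers (8 genes, with the gate genes Ly6c1 and Ly6c2) held 5297 to 6073 CPM in Ly6Chigh cells, against 2135 to 2474 CPM in Ly6Clow cells of SULT2B1b-LLC tumours, and 4265 to 6365 CPM, against 2517 to 3077 CPM, in Mock-LLC tumours, with 5 of 8 past the threshold as higher in both. The macrophage markers went the other way, with 7 of 9 past it as lower in Ly6Chigh cells of both tumour types. Eosinophil markers held 25.7 to 63.2 CPM in Ly6Chigh cells of SULT2B1b-LLC tumours and 3.72 to 55.3 CPM in those of Mock-LLC tumours, and 4 and 5 of the 6 tested were lower than in Ly6Clow cells. Plasmacytoid dendritic cells are known as strong makers of type I interferon: their 8 markers held 79.5 to 128 CPM in Ly6Chigh and 73.9 to 80.2 CPM in Ly6Clow cells of SULT2B1b-LLC tumours, and 79.1 to 124 CPM and 85.3 to 106 CPM in those of Mock-LLC tumours. Their defining gene Siglech had no count in 7 of the 15 libraries and reached 151 counts in Ly6Chigh cells of SULT2B1b-LLC tumour 4. Of the 8 plasmacytoid markers, 1 passed as higher and 1 as lower in SULT2B1b-LLC than in Mock-LLC tumours in Ly6Chigh cells, and none in Ly6Clow cells. Between populations 1 passed as lower in Ly6Chigh cells of Mock-LLC tumours, and none passed in SULT2B1b-LLC tumours. T cell, NK cell and B cell markers stayed at or below 23.5 CPM summed in every library. Fibroblast and endothelial markers (8 genes) held 639.9 to 1398 CPM in Ly6Chigh cells of SULT2B1b-LLC tumours, against 109.8 to 656 CPM in those of Mock-LLC tumours, with 2 of 8 past the threshold as higher. In Ly6Clow cells they held 88.8 to 169 CPM, against 153 to 306 CPM in Mock-LLC tumours, with none past it. Neutrophil markers (8 genes) held 544 to 656 CPM in Ly6Clow cells of SULT2B1b-LLC tumours, against 402 to 683 CPM in those of Mock-LLC tumours. In Ly6Chigh cells they held 102 to 147 CPM, against 69.0 to 110.2 CPM in Mock-LLC tumours, so that the sum was below that of every Ly6Clow library. The single neutrophil markers did not all follow the sum. Of the 6 tested, 1 passed as lower in Ly6Chigh cells of each tumour type, and 1 passed as higher in Mock-LLC tumours. The log2 fold change between populations was above 0 for 2 of the 6 in SULT2B1b-LLC tumours and 4 in Mock-LLC tumours. Markers of type 2 conventional dendritic cells (6 genes, with the gate gene Itgax, which encodes CD11c) held 421 to 477 CPM in Ly6Chigh cells of SULT2B1b-LLC tumours. Those of Mock-LLC tumours held 325 to 540.2 CPM. In Ly6Clow cells these markers held 280 to 377 CPM, against 246 to 264 CPM in Mock-LLC tumours, without overlap. None of the 6 passed between tumour types in either population. The log2 fold change in Ly6Clow cells was above 0 for 4 of them. Between populations 2 of the 6 passed as higher in Ly6Chigh cells of each tumour type. Epithelial markers of tumour cells (6 genes) stayed at or below 145 CPM summed in every library. Of the 4 tested, 1 passed as higher in SULT2B1b-LLC than in Mock-LLC tumours in Ly6Chigh cells, and none passed in Ly6Clow cells. Between populations 2 passed as lower in Ly6Chigh cells of Mock-LLC tumours, and none passed in SULT2B1b-LLC tumours.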

How the data were processed

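The authors deposited 1 table of raw read counts per gene symbol, with 50508 symbols and 15 libraries and no normalization; the values are whole numbers and their totals differ between libraries. Per the labels' protocols, 500 ng of total RNA went into a SMART-Seq v4 library, and reads were single-end of 75 nt. STAR 2.5.3a, featureCounts, limma and the builds mm10 and GRCm38 are named in the submitters' processing notes; the annotation release and the counting options were not found in those notes or labels.

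Counts were analysed with edgeR 4.0.16 in R 4.3.3 (filterByExpr, 13800 genes; TMM; robust quasi-likelihood fit of the 4 groups). Tests were two-sided, adjusted by Benjamini-Hochberg over all genes tested within each of 5 comparisons, with a threshold of 0.05. CPM use TMM-scaled totals, and ± is an SD for levels and a standard error for log2 fold changes. Intervals are 95%. Floors cover counting error only. The fit was also run on simulated counts. The seeded differences there were larger than most tumour-type differences of the 40 genes, and the outcome is not reported here. Pairs of replicates differed beyond sampling noise (chi-square over degrees of freedom of 22.9 to 104). Within a tumour type, libraries with a shared number were, per the labels, sorted from the same numbered tumour; their deviations correlated at r of -0.0103 to 0.0936 across genes.

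The 40 genes, the lists, the tests and the rule for named genes were chosen with earlier results of these data known. Values of every library are given for genes past the threshold between tumour types, the 5 largest changes there, and the largest and smallest population difference of each role in Mock-LLC tumours; Irf7, Lgals3bp and Ifi27l2a were added from the highest levels per kb. Per-library values of Xaf1, Rtp4 and Dtx3l are given for Ly6Clow cells. Alternatives were median-ratio factors, no filter, DESeq2 1.42.0, limma-voom 3.58.1 with quality weights, fits of the groups compared alone, a replicate block and each library left out. Positions come from GENCODE vM21 and promoter windows from RefSeq, matched by symbol. Not every gene of the pathway lists is reported here.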

Additional observations from a re-analysis of the deposited data

Results flagged for a closer look

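Within the groups of 4 libraries, 3 of 57 tests over 19 genes found a library far from the other 3, where chance gives about 1 in 20. Rsad2 was at 199 CPM in Ly6Chigh cells of SULT2B1b-LLC tumour 4, where the other 3 libraries of that group were at 253 to 263 CPM. Xaf1 was at 28.9 CPM in Ly6Clow cells of Mock-LLC tumour 2, where the others were at 32.6 to 33.3 CPM. Ifi27l2a was at 338 CPM in Ly6Chigh cells of Mock-LLC tumour 2, where the others were at 537 to 572 CPM.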

How the results depend on the processing

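None of the 22 single-gene values recomputed under the alternatives changed direction where the main or the alternative fit was past the threshold. A change of direction with neither fit past it was not counted. With DESeq2 the counts were 2 (Ly6Chigh) and 7 (Ly6Clow) between tumour types, and 31 (SULT2B1b-LLC) and 37 (Mock-LLC) between populations. In Ly6Clow cells between tumour types, 5 genes passed in the fit of those libraries alone and 10 with limma-voom and quality weights; over all genes tested these fits called 422 and 703, where the fit of all groups called 88. The causes were not tested. Leaving out each library in turn gave 0 genes each time between tumour types in Ly6Chigh cells, 1 each time in Ly6Clow cells, 12 to 21 between populations in SULT2B1b-LLC tumours, 32 to 35 in Mock-LLC tumours and 0 each time for the interaction. Where a library left out leaves few in a group, the pooled spread of the other groups stands in for its own. The replicate block by tumour gave 18 genes in SULT2B1b-LLC tumours, 33 in Mock-LLC tumours and 0 for the interaction; it takes no information from SULT2B1b-LLC tumour 1, which has no partner. Between tumour types the numbers pair nothing (r of deviations -0.114 to 0.0267), and a block by tumour number gave 0 (Ly6Chigh) and 1 (Ly6Clow), so the block changed no other call. Median-ratio factors moved the median log2 fold change of all genes tested by 0.11 in SULT2B1b-LLC and 0.13 in Mock-LLC tumours between populations, and relative to that median the 40 genes kept their direction. No filter on low counts gave 16 genes in SULT2B1b-LLC and 30 in Mock-LLC tumours, and the share of all genes tested that passed is not given here. Of the single-gene values recomputed, 8 under alternatives lost the threshold and 8 gained it, while 287 kept their side.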

Other observations

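The remaining oligoadenylate synthetase genes of the list, all on chromosome 5, were Oas1g, Oas2, Oas3, Oasl1 and Oasl2. Each had a higher mean in Ly6Chigh than in Ly6Clow cells of both tumour types. Oasl2 averaged 390.1 ± 65.2 CPM in Ly6Chigh cells of SULT2B1b-LLC tumours and 299 ± 39.98 CPM in those of Mock-LLC tumours (SD, n = 4 each), and 196 ± 39.97 CPM and 127 ± 7.44 CPM in Ly6Clow cells of SULT2B1b-LLC (n = 3) and Mock-LLC tumours (n = 4). Oas3, a large synthetase, averaged 189 ± 37.3 CPM and 174 ± 89.6 CPM in Ly6Chigh cells and 94.0 ± 4.66 CPM and 65.0 ± 14.4 CPM in Ly6Clow cells, SULT2B1b-LLC tumours first. Oas2 had a log2 fold change between tumour types of -0.14 ± 0.28 in Ly6Chigh and 0.65 ± 0.30 in Ly6Clow cells, and neither passed (adjusted p = 0.877 and 1.00). Oasl1, which in mice limits the translation of Irf7, had values of 0.23 ± 0.21 and 0.60 ± 0.23, also not past the threshold.

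Among the other genes with population differences, Usp18 averaged 173 ± 30.1 CPM in Ly6Chigh cells of SULT2B1b-LLC tumours, against 74.0 ± 25.7 CPM in Ly6Clow cells, and 179 ± 30.5 CPM, against 59.3 ± 5.84 CPM, in Mock-LLC tumours. Mx1, a GTPase that blocks influenza viruses in mice with an intact gene, averaged 222 ± 80.8 CPM, against 80.0 ± 23.8 CPM, in SULT2B1b-LLC tumours and 215 ± 69.9 CPM, against 60.6 ± 8.55 CPM, in Mock-LLC tumours. Eif2ak2, which encodes the kinase PKR that stops translation on double-stranded RNA, averaged 64.1 ± 24.6 CPM, against 24.4 ± 6.71 CPM, and 55.4 ± 22.3 CPM, against 22.7 ± 1.66 CPM, in those tumours. Samd9l, a restriction factor that passed in neither tumour type, averaged 168 ± 8.27 CPM, against 132 ± 16.2 CPM, in SULT2B1b-LLC tumours and 188 ± 70.3 CPM, against 114 ± 20.1 CPM, in Mock-LLC tumours. Tor3a, a torsin of the endoplasmic reticulum, had folds of 1.49 and 1.49 in these tumour types.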
